A study of Homo sapiens with 2 samples.

Results

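The genes described here are listed as targets of the tumour suppressor p53 outside apoptosis. They are regulators of p53 itself, genes of cell cycle arrest, DNA repair and metabolism, and a group of membrane, secreted, signalling and other genes. Whether p53 induces each of them was not checked. The list holds 42 gene symbols, of which 41 were found in the deposited table, all with a value, among 17054 genes with a value and 17987 listed. CPT1C-AS1 was not found by symbol or synonym and is not described further. The members were listed by name, but with earlier results of these data already known. RNA-Seq was performed in HCT116, a cell line from a human colon cancer with wild-type p53. The glucose deprivation library came from cells cultured in glucose-free medium (0 mM) for 24 h, and the normal medium library from cells cultured equally long in medium with glucose. The sample labels give both as wild type in genotype, whereas the table names the cells HCT116 NC, which the study uses for knockdown control cells. There is 1 library per condition, so no difference has a replicate check and no p-value is given across genes.

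Each value is the authors' log2 fold change of a gene, glucose deprivation over normal medium, and the level of a gene in either library is unknown. The direction was read from the column name. The study lists 41 genes that were lowered by glucose deprivation and whose guides were also enriched in its screen. All 41 carry negative values. A gene was counted as higher above a fold of 1.2 and as lower if its log2 value was under -0.75, the sizes given in the study's methods. A size of 2-fold in both directions was used beside them. The false discovery rate (FDR) listed for each gene comes from the authors' Poisson test, which compares the reads of 2 libraries and not the conditions. Over all genes the median log2 fold change was -0.12, so that a member at 0 lies slightly above the middle of the table. The levels of the epithelial genes EPCAM, KRT8 and KRT18 and of genes of other cell types are not known from these values, so the labelled cell type could not be checked.

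p53 is a transcription factor that is kept scarce by the ubiquitin ligase MDM2 and its partner MDM4, and it accumulates when cells meet DNA damage or other stress. It binds a consensus made of a pair of short elements and induces genes that stop the cell cycle, repair DNA, change metabolism or, with stronger stress, kill the cell. MDM2 and the phosphatase PPM1D are themselves induced by p53 and act back on it. Several targets, the cell cycle inhibitor CDKN1A and GADD45A among them, can also be induced without p53, for example in the response to amino acid shortage or to unfolded proteins.

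Most of the p53 targets were higher under glucose deprivation. Of the 41 members, 30 were higher, 4 were lower and 7 were neither, and 73.2% of the members were thus higher against 29.0% of all genes. The 4 lower members made up 9.76% against 22.3% of all genes. The median log2 fold change of the members was 0.74, which is 0.86 above the median of all genes. At the 2-fold size, 15 members (36.6%) lay above a log2 fold change of 1, against 9.22% of all genes, and 2 (4.88%) lay below -1, against 15.4% of all genes. With an FDR of at most 0.001 asked as well, 26 members were higher, against 15.9% of all genes, and 3 were lower, against 13.1% of all genes. The largest values were those of TP53I3 (2.74), CDKN1A (2.32) and EDA2R (2.32, with a listed FDR of 0.112), and the lowest was that of KITLG (-1.74). The quartiles of the members were 0.22 and 1.19.

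**Figure D1:**
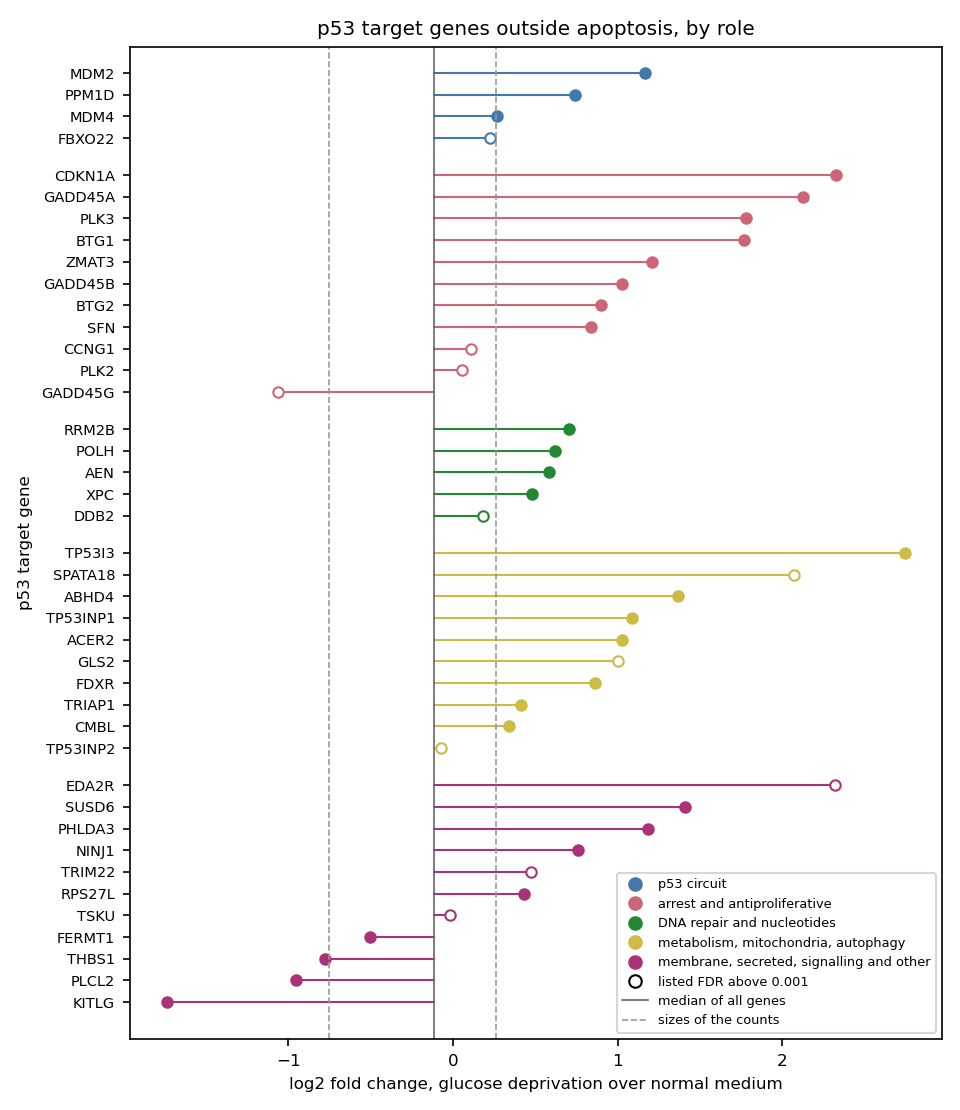
Log2 fold change of each of the 41 p53 target genes with a value, glucose deprivation over normal medium, 1 library per condition and grouped by role. Each line runs from the median of all genes (-0.12) to the value, open points have a listed FDR above 0.001, and the dashed lines mark the sizes of the counts; 30 genes lie right of the upper dashed line and 4 left of the lower one.

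**Figure D2:**
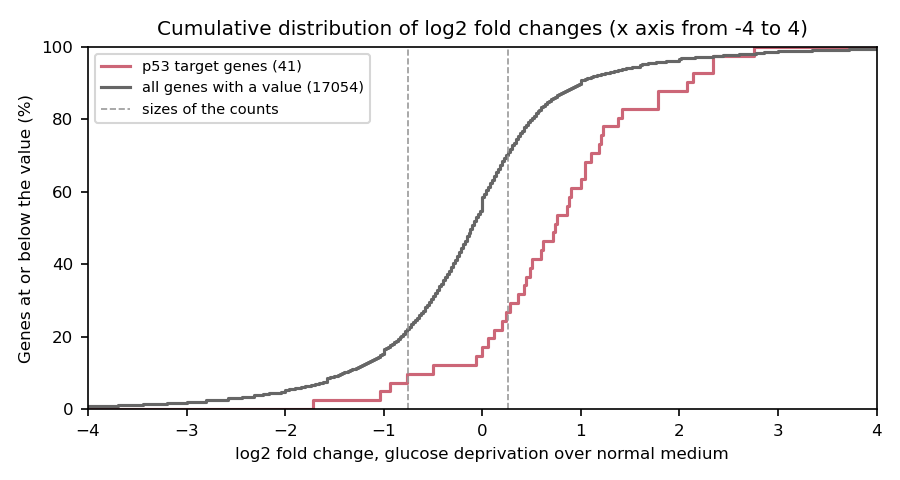
Share of genes at or below each log2 fold change, glucose deprivation over normal medium, for the 41 p53 target genes and for all 17054 genes with a value. The curve of the p53 targets lies to the right of that of all genes, with medians of 0.74 and -0.12, and the dashed lines mark the sizes of the counts.

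Some of these folds were ratios of small whole numbers. In 6 members the fold was exactly a ratio of whole numbers up to 50, within a relative tolerance of 1e-07, and all 6 had a listed FDR above 0.001. They were GLS2 (2 to 1), EDA2R (5 to 1), SPATA18 (21 to 5), TRIM22 (32 to 23), TP53INP2 (20 to 21) and GADD45G (12 to 25), each given as glucose deprivation to normal medium. Such ratios were found for 28.7% of all genes with a value. In total 11 members had a listed FDR above 0.001, of which 4 were higher, 6 were neither and 1 was lower.

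The start sites of the members were searched for the p53 consensus, because the sequence around a start site is where part of these genes carry their known response elements. RefSeq windows of 300 bases (250 before to 50 after a start, GRCh38.p14) were at hand for 33 of the 42 members, 44 windows in all. The consensus was taken as 2 elements of 10 bases each, abutting or 1 base apart, and the search reads the same on both strands because the consensus is its own reverse complement. The only member window without a mismatch was one of DDB2, against 0.0199% of all 35116 windows. With at most 2 mismatches, 5 member windows of 4 genes matched (11.4%), against 1.34% of all windows, and with at most 3 mismatches 13 matched (29.5%), against 9.75% of all windows. The members were listed as p53 targets, so these shares describe the list and are no separate finding. The windows of these 4 genes are shown 5′ to 3′ on the strand of the gene, with the closest match in capitals.
DDB2 (chr11:47214724-47215023, + strand, 0 mismatches, spacer of 1 base): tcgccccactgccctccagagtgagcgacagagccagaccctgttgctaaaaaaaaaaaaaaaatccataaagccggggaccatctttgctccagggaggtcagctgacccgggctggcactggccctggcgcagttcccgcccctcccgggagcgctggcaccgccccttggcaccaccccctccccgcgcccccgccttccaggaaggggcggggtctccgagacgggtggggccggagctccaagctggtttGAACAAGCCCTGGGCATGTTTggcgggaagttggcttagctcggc
AEN (chr15:88621090-88621389, + strand, 2 mismatches): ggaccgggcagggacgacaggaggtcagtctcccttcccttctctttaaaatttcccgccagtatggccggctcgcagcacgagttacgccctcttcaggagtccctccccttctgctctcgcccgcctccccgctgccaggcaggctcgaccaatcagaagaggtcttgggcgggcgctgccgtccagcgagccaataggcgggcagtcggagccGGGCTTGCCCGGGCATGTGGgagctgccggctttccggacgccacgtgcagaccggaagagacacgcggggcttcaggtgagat
GLS2 (chr12:56488112-56488411, - strand, 2 mismatches): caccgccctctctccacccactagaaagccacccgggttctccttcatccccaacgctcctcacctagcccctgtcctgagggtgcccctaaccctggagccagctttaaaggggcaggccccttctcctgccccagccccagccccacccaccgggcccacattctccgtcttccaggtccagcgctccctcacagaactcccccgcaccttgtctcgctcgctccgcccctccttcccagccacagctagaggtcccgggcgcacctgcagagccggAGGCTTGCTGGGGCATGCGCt
MDM2 (chr12:68808774-68809073, + strand, 2 mismatches): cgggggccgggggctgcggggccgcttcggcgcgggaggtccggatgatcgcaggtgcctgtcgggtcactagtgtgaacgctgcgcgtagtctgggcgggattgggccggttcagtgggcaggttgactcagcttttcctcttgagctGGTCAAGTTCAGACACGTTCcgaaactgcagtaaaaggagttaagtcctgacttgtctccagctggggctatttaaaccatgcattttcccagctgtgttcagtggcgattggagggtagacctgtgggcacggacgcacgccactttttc

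The MDM2 window belongs to the more downstream of its start sites, and the other MDM2 window with a match overlaps it. It also holds a weaker match with 3 mismatches further towards the start, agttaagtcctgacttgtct. The log2 fold changes of the 4 genes were 1.17 for MDM2, 1.00 for GLS2, 0.58 for AEN and 0.18 for DDB2, so the gene whose window matched without a mismatch had the smallest value of the 4. The windows of CDKN1A and TP53I3, the members with the largest values among those with a listed FDR of at most 0.001, had at best 5 mismatches, a number that 85.6% of all windows reach. Their known elements need not lie in these windows. Binding of p53 was not measured here.

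**Figure D3:**
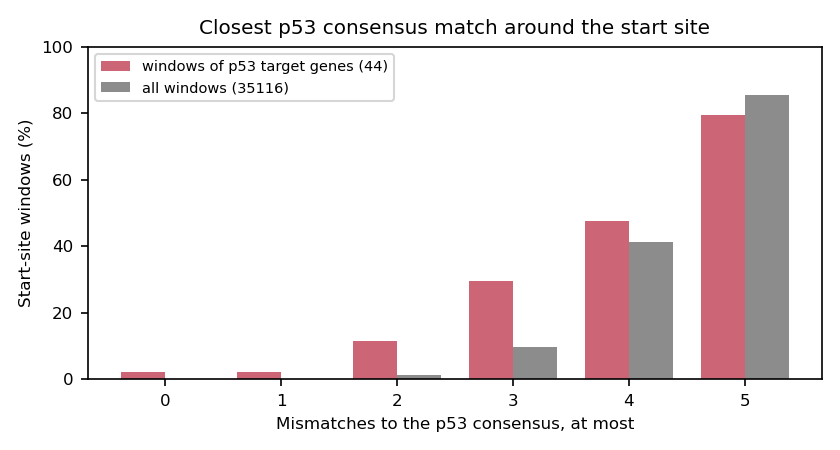
Share of start-site windows (300 bases each) whose closest match to the p53 consensus has at most the given number of mismatches, for the 44 windows of p53 target genes and for all 35116 windows. The p53 targets stand above all windows at 2 mismatches (11.4% against 1.34%) and 3 mismatches (29.5% against 9.75%) but not at 5.

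Among the genes that act on p53 itself, 3 of 4 were higher and none was lower, with a median of 0.50. Over all genes, 29.0% were higher and 22.3% lower. MDM2 (gene ID 4193), the ubiquitin ligase that marks p53 for degradation, had a log2 fold change of 1.17, a level 2.25-fold higher under glucose deprivation than in normal medium. PPM1D, a phosphatase that removes activating phosphates from p53 and its kinases, stood at 0.74, a fold of 1.67. MDM4, which binds p53 beside MDM2, had a fold of only 1.205 (log2 fold change 0.27) and was thus just above the size asked for. FBXO22, a subunit of a ubiquitin ligase, had a log2 fold change of 0.22 and was neither higher nor lower. Within this group MDM2 was therefore the single gene above 2-fold, and it lay above 92.2% of all genes.

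The genes of cell cycle arrest and antiproliferative action held 8 higher members of 11, 6 of them above 2-fold, with a median of 1.02. These shares were 72.7% and 54.5%, against 29.0% and 9.22% of all genes. CDKN1A (gene ID 1026), which encodes the inhibitor p21 of cyclin-dependent kinases, had a log2 fold change of 2.32, 5.0-fold higher, and lay above 97.5% of all genes. GADD45A, a stress sensor that binds PCNA and activates stress kinases, had 2.13 on the log2 scale (fold 4.37). The stress-responsive polo-like kinase PLK3 (1.78) and the antiproliferative factor BTG1 (1.77) had log2 fold changes close to each other. ZMAT3, an RNA-binding regulator of splicing, had a log2 fold change of 1.21. The values of BTG2 (0.90) and of SFN (0.84), the 14-3-3 sigma protein that holds cells before mitosis, lay below 2-fold.

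Close relatives within this group differed in value. GADD45A (2.13) and GADD45B (1.02) both lay above 2-fold on the log2 scale, whereas GADD45G stood at -1.06 with a fold of 0.48 (12 to 25) and a listed FDR of 0.564. PLK3 was higher at 1.78, whereas PLK2, its paralog and also a p53 target, had a log2 fold change of 0.05 and a listed FDR of 0.394. CCNG1, cyclin G1, one of the targets first known for p53, was likewise near 0 at 0.11, a fold of 1.08. CCNG1 and PLK2 passed the smaller size of an increase only when all values were centred on commonly used reference genes (0.48 and 0.42).

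The members grouped under DNA repair and nucleotide supply were higher by small amounts. Of 5 such members 4 were higher (80%, against 29.0% of all genes). None was above 2-fold and none was lower, against 9.22% and 22.3% of all genes. The log2 fold changes of the group lay between 0.18 and 0.70. RRM2B, the p53-inducible subunit of ribonucleotide reductase, had the largest at 0.70, a fold of 1.63. The translesion DNA polymerase POLH followed at 0.62 and AEN, a nuclease named for enhancing apoptosis, at 0.58. XPC, which recognises damage in nucleotide excision repair, stood at 0.48. DDB2, the other damage sensor of that pathway, had a fold of 1.14 (log2 fold change 0.18, listed FDR 0.00397) and was neither higher nor lower. At 0.75 in both directions no member of this group would be counted.

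Of 10 members with a value in metabolism, mitochondria and autophagy, 9 were higher (90%) and none was lower, with a median of 1.01. The shares over all genes were 29.0% and 22.3%. TP53I3 (gene ID 9540), an oxidoreductase linked to the formation of reactive oxygen species, had the largest log2 fold change of all members at 2.74, a fold of 6.70, and lay above 98.2% of all genes. ABHD4, a lipid hydrolase, had 1.37, and the alkaline ceramidase ACER2 had 1.03 on the log2 scale. FDXR, the mitochondrial reductase that passes electrons to ferredoxin, stood at 0.86. TRIAP1, which takes part in lipid transfer within mitochondria, and the hydrolase CMBL had smaller log2 fold changes of 0.42 and 0.34. SPATA18, which acts in mitochondrial quality control, had a log2 fold change of 2.07 with a listed FDR of 0.00268. GLS2, the p53-induced glutaminase, stood at 1.00 with a listed FDR of 0.222, and both folds were ratios of whole numbers up to 50.

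The autophagy proteins TP53INP1 and TP53INP2, related in sequence, differed in value. TP53INP1 had a log2 fold change of 1.09, a fold of 2.13, whereas TP53INP2 stood at -0.07 with a listed FDR of 0.547. The small negative value of TP53INP2 became 0.05 when all values were centred on the median of all genes.

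The membrane, secreted and signalling members were the most divided group, with 6 higher, 3 lower and 2 neither of 11 and a median of 0.43. Among all genes 29.0% were higher and 22.3% lower. The share of lower genes in the group, 27.3%, was thus near that of all genes, whereas 54.5% of these members were higher. Over the 8 of them with an FDR of at most 0.001 the median was -0.036. SUSD6, a transmembrane protein, had a log2 fold change of 1.41, and PHLDA3, an inhibitor of the kinase AKT, had 1.19. NINJ1, which ruptures the plasma membrane of dying cells, had 0.76. RPS27L, a ribosomal protein close in sequence to RPS27, had 0.43, and its value is uncertain where reads of such copies were divided between them by RSEM. EDA2R, a receptor of the tumour necrosis factor family, had a log2 fold change of 2.32, but its listed FDR was 0.112. TRIM22 stood at 0.48 with a listed FDR of 0.467.

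All members that were lower with an FDR of at most 0.001 belonged to this group. KITLG (gene ID 4254), the ligand of the receptor KIT, had a log2 fold change of -1.74, a level 3.34-fold lower under glucose deprivation than in normal medium, and only 6.56% of all genes had a lower value. PLCL2, a phospholipase C-like protein, had -0.95, and the secreted matrix protein THBS1 had -0.78, just past the size asked of a decrease. FERMT1, an adaptor of integrins, had a log2 fold change of -0.50 and TSKU, a secreted protein, had -0.02, and neither passed a size. Centring on the median of all genes brought THBS1 to -0.66, no longer past that size, and TSKU to 0.10.

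Lists of related genes show where the members stand. Of 20 genes listed as relatives or upstream regulators of p53, 6 (30%) were higher and 3 (15%) lower. The share of higher genes was near the 29.0% of all genes, and that of lower genes was below 22.3%. The median of the 20 was 0.012, and none of them lay above 2-fold, against 9.22% of all genes. The damage kinase ATM (0.94), the kinase HIPK2 (0.45) and the ribosomal protein gene RPL11 (0.38) had the largest log2 fold changes of that list. The p53 relative TP73 (-1.81) and the checkpoint kinases CHEK1 (-1.06) and CHEK2 (-1.06) were lower. Of 15 genes with a value listed as apoptotic p53 targets, 11 (73.3%) were higher and 1 (6.67%) was lower. Their median was 0.98, beside 0.74 for the members. The list mixes genes that promote apoptosis with genes that restrain it, such as BCL2L1 and the decoy receptor genes TNFRSF10C and TNFRSF10D. TNFRSF10C (2.35) and TNFRSF10B (2.17), which encode receptors of the tumour necrosis factor family, and BBC3 (1.60), which encodes PUMA, led that list in log2 fold change. Its lower gene was BID (-0.87). Of 14 other non-apoptotic p53 targets with a value, 8 (57.1%) were higher and 1 (7.14%) lower, with a median of 0.40. The stress cytokine GDF15 (4.05) and SESN2 (2.76) had larger log2 fold changes than any member, KLF4 followed at 1.57, and SESN3 (-2.04) was lower.

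The genes that p53 is known to lower through p21 and the DREAM complex went the other way. All 16 of them lay below a log2 fold change of -1, against 15.4% of all genes. The median of the 16 was -1.99, and CCNA2 (-2.58), PLK1 (-2.57) and CCNB1 (-2.56) were the lowest. These are genes of dividing cells, and a lower share of dividing cells and less RNA per cell cannot be told apart in bulk RNA. The study also reports death of HCT116 cells without glucose. For every gene, a change in which cells remained therefore cannot be told apart from a change per cell. Targets of ATF4 and CHOP, the factors of the amino acid and unfolded protein responses, were higher as well. The list of 10 such genes that are not members also holds ATF4 itself (0.99) and DDIT3, which encodes CHOP. Of the 10, 9 were higher (90%, against 29.0% of all genes), with a median of 2.75. DDIT3 (5.88), CHAC1 (4.02) and ATF3 (3.70) led in log2 fold change. VLDLR (-1.32) was lower, with a listed FDR of 0.753. The lists do not exclude each other, and GDF15 and SESN2, for example, are also known to be induced through ATF4 or CHOP. The part of either response in the values of the members and of the other p53 targets was not tested. No list was compared with another by a test.

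**Figure D4:**
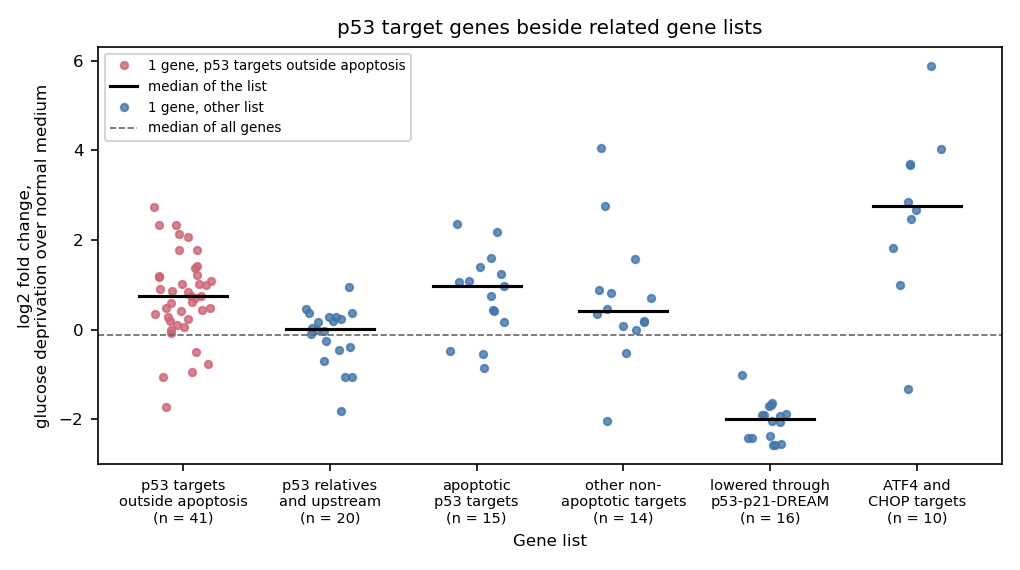
Log2 fold change, glucose deprivation over normal medium, of each gene with a value on 6 gene lists, 1 library per condition. Bars are the medians of the lists (0.74 for the p53 targets outside apoptosis, 0.012, 0.98, 0.40, -1.99 and 2.75 for the others from left to right) and the dashed line is the median of all genes (-0.12).

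In the GENCODE annotation, 9 of the 41 members share at least 50 bases of exon with a gene on the opposite strand, among them TP53I3 with FAM228B, PLK3 with TCTEX1D4, XPC with LSM3 and GLS2 with SPRYD4. The counting is not stated to use strand, so reads of such pairs cannot be told apart with certainty.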

How the data were processed

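RNA-Seq was performed on 2 HCT116 libraries, 1 per condition. The study's methods name mapping with Bowtie to mm10 and quantification with RSEM, while Bowtie2, BWA and hg19 are listed in the submitters' processing notes, and tool versions are not given in the sources used here. Human gene IDs are used, and all 41 matched members carried the same symbol in RefSeq.

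The authors deposited 1 table with a log2 fold change per gene, and with the p-value and FDR of their Poisson test. The deposited FDR was treated as a score, because 501 values exceed 1. It holds only this comparison and no level or depth, so intervals, pseudocounts and detection limits do not apply, and the deposited log2 fold change had to be the measurement. The 933 genes without a value were left out.

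Members and lists were counted by size, and their medians set beside all genes, with no test. All members were named, and of each other list the 3 largest values past the sizes in each direction. A few listed genes are not reported here and were left out of the lists. The members and lists were chosen with earlier results of these data known. The p53 consensus search and the ratios up to 50 were chosen after the values were seen. Scripts were tested on simulated data. Python 3.11.15, numpy 2.4.6, pandas 2.3.3 and matplotlib 3.10.9 were used.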

Additional observations from a re-analysis of the deposited data

How the results depend on the processing

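Percentages in parentheses are the genes past the size under the same setting, divided by all 17054 genes with a value. This holds also where a setting leaves genes out. Ratios up to 20 made up 20.4% of all genes, so the shares without them would be larger among the genes kept. The number of higher members was 30 (29.0%) and became 20 at 0.75 in both directions (13.5%), 26 with a listed FDR of at most 0.001 (15.9%) and 27 with a p-value under 0.01 from the authors' Poisson test (18.1%). It was 32 (34.2%) and 36 (49.5%) with values centred on all genes or on 14 reference genes (shifts of 0.12 and 0.37), 28 without GLS2 and EDA2R and all other folds that are ratios of whole numbers of at most 20 (22.2%), and 15 at the 2-fold size (9.22%). The number of lower members was 4 (22.3%) and became 2 at the 2-fold size (15.4%) and 1, KITLG, when centred on the reference genes (13.5%). It was 3 with the FDR (13.1%), the p-value (14.5%) and the centring on all genes (19.2%), and 4 without ratios up to 20 (15.4%). The median of the members, 0.74, became 0.85 with the FDR, 0.86 and 1.11 after the centrings on all genes and on reference genes, and 0.70 without ratios up to 20. The median of the membrane, secreted and signalling members turned to -0.036 with the FDR, a setting with fewer genes. Asking for exact symbols could change nothing, because every gene found had matched by symbol. Centring on the reference genes also took GADD45G, PLCL2 and THBS1 out of the lower members. No paired analysis was possible because each medium has a single library, and depth is unknown.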
